A study of Homo sapiens with 12 samples.

Results

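The carcinoembryonic antigen-related cell adhesion molecule (CEACAM) genes lie in a cluster on human chromosome 19. The genes studied were listed by name: CEACAM1, CEACAM3, CEACAM4, CEACAM5, CEACAM6, CEACAM7, CEACAM8 and CEACAM21. They are 8 of 19970 protein-coding genes with a canonical start site in GENCODE release 44. The list was drawn up with results of these data known, among them a strong peak at CEACAM21, so the members were selected on the peaks of these same lists, and the positions and strengths of peaks given here are a description. A peak belonged to a gene when it lay in the gene body, over the start site, or within 50 kb of the canonical start site on either side. Where such windows overlapped, neighbouring genes shared regions. Peaks that overlapped or touched were merged over the lists into regions, and the distance of a region runs from the start site to the nearest edge of the merged region, which single lists may not reach.

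CEACAM proteins are adhesion receptors of the immunoglobulin superfamily that bind one another and several bacterial adhesins. CEACAM1 carries inhibitory tyrosine motifs that recruit the phosphatases SHP-1 and SHP-2, CEACAM3 and CEACAM4 carry activating motifs that drive phagocytosis in granulocytes, and CEACAM5, CEACAM6, CEACAM7 and CEACAM8 are held in the membrane by a lipid (GPI) anchor. Dimethylation of histone H3 at lysine 4 (H3K4me2) is found at promoters and enhancers and is removed by the demethylase LSD1 of the CoREST complex.

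The study treated U-937, a human myeloid leukaemia line with monocytic features, for 24 hours with the vehicle DMSO, with 0.1 µM all-trans retinoic acid (ATRA), with 0.1 µM Corin, or with 0.1 µM of each (ATRA+Corin). ATRA is the ligand of the retinoic acid receptors and induces myeloid differentiation, and Corin is a synthetic inhibitor of the demethylase and deacetylase activities of CoREST. H3K4me2 was measured by chromatin immunoprecipitation and sequencing in 2 libraries per treatment, with 1 input library per treatment, 12 libraries in all. The deposited values are 4 peak lists, 1 for each treatment, so no spread between replicates can be computed, no p-value is given, and every difference is one between these lists.

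The DMSO list held 65172 peaks, the ATRA list 66385, the Corin list 73997 and the ATRA+Corin list 83969. Counts of H3K4me2 fragments at the summits were recovered from the deposited fold and p-values, and the relative H3K4me2 depth was 1, 1.02, 1.097 and 1.199 in the same order. Intervals on fragments are 95% Poisson intervals, intervals on shares are 95% Wilson intervals, and both cover counting error only. Fragment counts below are not scaled for depth unless this is stated. The count of a list in a region is that at its own strongest summit, and these summits can lie at different places in the lists. Start sites of the myeloid markers were under a peak for 7 of 9 genes in the DMSO, ATRA and Corin lists and for 4 of 9 in the ATRA+Corin list. The bodies of these markers held a peak for 8 of 9 genes in every list, so the start count alone does not show a loss of the mark. Of all protein-coding start sites, 47.3% were under a peak in the DMSO list and 38% in each of the Corin and ATRA+Corin lists. Erythroid (0 of 3) and epithelial (0 of 4) markers had no start site under a peak in any list, and the B cell markers had 1 or 2 of 4 and the T cell markers 1 of 4. A peak lay in the body of 1 of 3 erythroid and 1 of 4 epithelial markers in every list.

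The promoters of the members are similar in sequence, and start sites with such similar promoters differed in H3K4me2. The letters are shown for the 6 that held the hexamer AGGTCA on either strand, each in a part that contains it. The 250 bases before the start site were aligned in 28 pairs of promoters. Identity over the aligned bases, 202 to 248 per pair with gaps left out, ran from 69.3% to 84.0%. By this measure CEACAM5 and CEACAM7 were the most alike. Each promoter held 1 to 5 CpG dinucleotides, against a median of 11 over 35116 RefSeq promoters of the same length. The hexamer AGGTCA, the core sequence that retinoic acid receptors and other nuclear receptors bind, was found on one strand or the other in 6 of 8 promoters, and in 12.1% of all promoters. Because the promoters resemble one another, the 8 are not separate observations. The sequences are from RefSeq (GRCh38.p14), 5′ to 3′ on the strand of the gene given in parentheses, 150 bases each, with the hexamer or its reverse complement TGACCT in capitals.
CEACAM1 promoter chr19:42528582-42528731 (-): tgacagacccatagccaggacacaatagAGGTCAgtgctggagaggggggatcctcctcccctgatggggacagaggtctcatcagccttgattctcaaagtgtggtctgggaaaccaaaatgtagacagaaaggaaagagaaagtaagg
CEACAM5 promoter chr19:41708376-41708525 (+): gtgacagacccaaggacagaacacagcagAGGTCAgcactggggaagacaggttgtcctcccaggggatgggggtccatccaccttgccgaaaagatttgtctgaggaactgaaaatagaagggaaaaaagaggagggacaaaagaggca
CEACAM7 promoter chr19:41688371-41688520 (-): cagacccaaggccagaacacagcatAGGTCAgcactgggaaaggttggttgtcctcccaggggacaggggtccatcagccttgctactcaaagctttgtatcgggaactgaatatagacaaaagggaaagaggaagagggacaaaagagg
CEACAM21 promoter chr19:41575916-41576065 (+): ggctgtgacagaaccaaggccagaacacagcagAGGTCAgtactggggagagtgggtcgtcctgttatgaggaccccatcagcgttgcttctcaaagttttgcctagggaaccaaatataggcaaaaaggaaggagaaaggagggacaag
CEACAM3 promoter chr19:41796437-41796586 (+): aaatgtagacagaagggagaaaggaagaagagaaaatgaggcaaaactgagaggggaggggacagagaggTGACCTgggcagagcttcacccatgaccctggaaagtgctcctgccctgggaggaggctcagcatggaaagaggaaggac
CEACAM4 promoter chr19:41627075-41627224 (-): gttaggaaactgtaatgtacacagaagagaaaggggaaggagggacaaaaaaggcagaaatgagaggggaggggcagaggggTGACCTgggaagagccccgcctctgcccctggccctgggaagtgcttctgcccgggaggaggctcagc

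In CEACAM1, CEACAM5, CEACAM7 and CEACAM21 the hexamer stood in the sense orientation at nearly the same place, at positions -222, -221, -225 and -217 counted from the start site to the first base of the hexamer. In CEACAM3 and CEACAM4 it stood in the opposite orientation, at positions -80 and -68. The promoters of CEACAM6 and CEACAM8 did not hold it in the 250 bases searched. No member promoter held the hexamer as a direct repeat with a spacing of 1, 2 or 5 bases. Of the 6 members with the hexamer, CEACAM1, CEACAM3, CEACAM4 and CEACAM21 had their start site under a peak in every list, and CEACAM5 and CEACAM7 in none. Of the 2 members without it, CEACAM6 had none, and CEACAM8 had one in the ATRA+Corin list alone. No test was made on so few related promoters.

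A stretch at the 3′ end of CEACAM21 lay under peaks of the ATRA and ATRA+Corin lists and under none of the DMSO and Corin lists, and its letters are shown for that reason (GRCh38, plus strand). It contained none of AGGTCA, the AP-1 motif TGANTCA and the RUNX motif TGTGGT on either strand, so no letter is in capitals.
CEACAM21 3′ end chr19:41585904-41586153 (+): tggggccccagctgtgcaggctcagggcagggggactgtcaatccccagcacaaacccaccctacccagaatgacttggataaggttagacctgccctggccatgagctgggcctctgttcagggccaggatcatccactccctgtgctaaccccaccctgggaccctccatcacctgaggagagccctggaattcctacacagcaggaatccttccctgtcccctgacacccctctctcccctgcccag

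Canonical start sites divided the members into those with a peak over the start and those without. CEACAM1, CEACAM3, CEACAM4 and CEACAM21 were under a peak in the DMSO, ATRA and Corin lists, 4 of 8 members each, and CEACAM8 joined them in the ATRA+Corin list, 5 of 8. Over all protein-coding genes the share of start sites under a peak was 47.3% in the list for DMSO, 48.1% with ATRA, 38% with Corin and 38% with both drugs. The canonical starts of CEACAM5, CEACAM6 and CEACAM7 were under no peak of any list. At all 4 start sites marked in every list, the ATRA list had a wider peak with more fragments than the DMSO list, and the peak of the ATRA+Corin list was wider than that of the DMSO list.

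**Figure D1:**
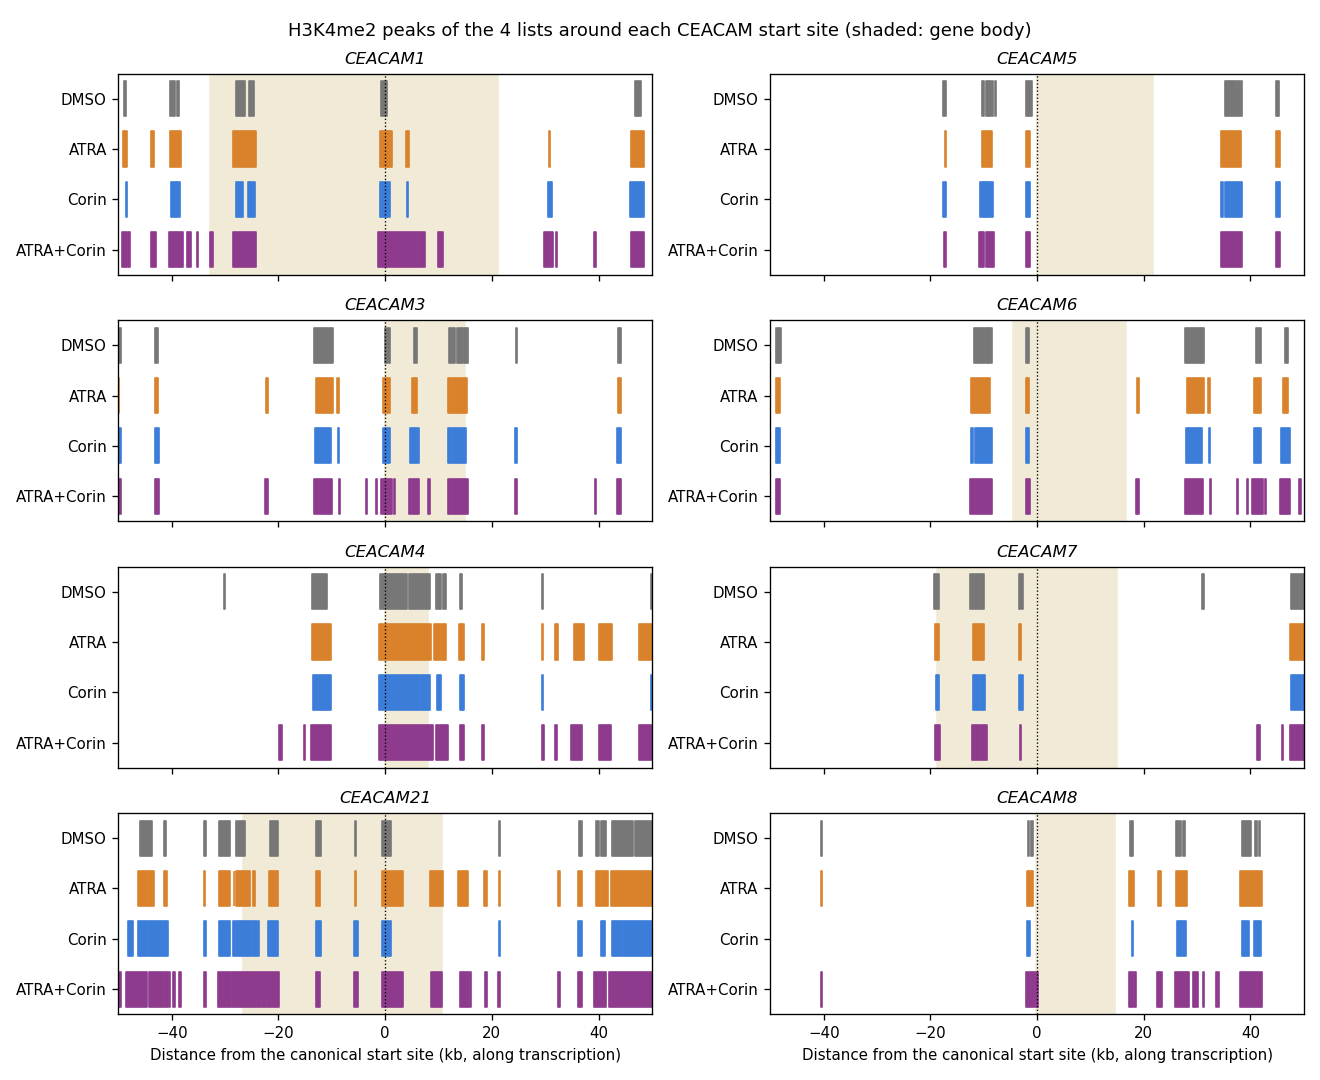
Peaks of the 4 lists around each CEACAM start site, with distance from the canonical start site in kb along the direction of transcription on the x axis, 1 line of boxes for each list, and the gene body shaded. The CEACAM1 start peak is 1074 bp wide after DMSO and 7349 bp wide after both drugs, and the body of CEACAM5 holds no box.

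CEACAM1, the inhibitory receptor, had the widest range of peak width and of fragments among the start sites marked in every list. Its start site at chr19:42528481 (minus strand, GRCh38) lay under a peak of 1074 bp with DMSO, 1733 bp with ATRA, 1826 bp with Corin and 7349 bp with both drugs. The merged region over the start held 1 DMSO peak, 3 ATRA peaks, 2 Corin peaks and 1 ATRA+Corin peak. They covered 1074, 2620, 2047 and 7349 bp. The start peak reached 363 bp into the gene after DMSO and 6051 bp after the combination, so most of the added width lay downstream of the start. The summit held 46 fragments (33.7 to 61.4) with DMSO, 134 (112 to 159) with ATRA, 98 (79.6 to 119) with Corin and 241 (212 to 273) with both drugs. Scaled to the DMSO depth these were 46, 132, 89.3 and 201 fragments, with the DMSO interval below the other intervals and the ATRA+Corin interval above them. In bulk cells, a stronger mark in each cell and the same mark in more cells cannot be told apart. The deposited fold over input was 4.15, 27.6, 13.99 and 44.8 in the same order, and the deposited −log10 q was 8.92, 107, 52.9 and 191.

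The rest of the CEACAM1 gene body (chr19:42507304-42561234) held 1 region present in every list and 4 present in the ATRA+Corin list alone. The region in every list (chr19:42552673-42556953) lay 24192 bp upstream of the canonical start, inside the longer transcripts of the gene, and overlapped no exon. Its strongest summit held 123 fragments with DMSO, 235 with ATRA, 89 with Corin and 187 with both drugs. Here the ATRA list stood above the ATRA+Corin list, the reverse of the order at the start site. The ATRA+Corin summit (chr19:42553770) lay apart from the ATRA summit (chr19:42555791), so the counts are those of different places in the region. Of the 4 regions of the ATRA+Corin list alone, the one 6175 bp downstream of the start overlapped an exon and had a −log10 q of 10.0 with 42 fragments (30.3 to 56.8). The one 9937 bp downstream had a −log10 q of 5.40 with 23 fragments. The remaining pair, at the far 5′ end of the gene, had 16 and 19 fragments. Peaks covered 6.22% of the CEACAM1 body with DMSO, 12.8% with ATRA, 8.49% with Corin and 26.2% with both drugs. Of 17207 protein-coding genes with a body of at least 5 kb, 2.02% differed as much as CEACAM1 or more between the ATRA+Corin and DMSO lists (19.9 percentage points, median of all genes 1.13). Against Corin alone the difference was 17.7 points, reached by 0.674% of genes. Between the Corin and DMSO lists CEACAM1 differed by 2.27 points, reached by 27.1% of genes.

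CEACAM3, the granulocyte receptor for bacterial uptake, was marked at its start and at its 3′ end. The peak over its start site (chr19:41796587, plus strand) was 498 bp wide with DMSO, 1401 bp with ATRA, 1240 bp with Corin and 2143 bp with both drugs. In the merged region the DMSO list had 2 peaks, which covered 807 bp. The summit of the start peak held 72 fragments (56.3 to 90.7), 110 (90.4 to 133), 67 (51.9 to 85.1) and 151 (128 to 177) in the order of the widths. The DMSO and Corin intervals overlapped each other, and both single-drug lists stayed below the ATRA+Corin count, although the ATRA and ATRA+Corin intervals also overlapped. At the 3′ end, a region over an exon (chr19:41809251-41812108) held 120 fragments with DMSO, 165 with ATRA, 111 with Corin and 164 with both drugs, and a neighbouring region (chr19:41808364-41809175), also over an exon, held 65, 100, 56 and 80. An intronic region 4391 bp from the start held 44, 67, 49 and 64 fragments. In each of these 3 regions the ATRA count was the highest, in the most 3′ one by 1 fragment. In the ATRA+Corin list alone, 2 short regions of the CEACAM3 body appeared, 228 and 425 bp wide, with −log10 q of 3.80 and 6.39. Peaks covered 24.9%, 33.1%, 37.1% and 46.2% of the CEACAM3 body, and the ATRA+Corin list was 21.3 points above the DMSO list, a difference that 1.76% of genes reached.

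A region 24292 bp downstream of the CEACAM3 start (chr19:41820879-41821306) had a peak in every list but that of ATRA. The DMSO list held 31 fragments there, the Corin list 71 and the ATRA+Corin list 122. Scaled to the DMSO depth these were 31, 64.7 (50.5 to 81.6) and 102 (84.5 to 122) fragments, with intervals that did not overlap. It was the only one of the 67 regions in the members' windows with this pattern, 1.49%, and 1.90% of all regions had it.

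CEACAM4, which also carries an activating motif, was the most widely marked member. The body of CEACAM4 (chr19:41619015-41627074, minus strand) was covered to 96.3% in the DMSO list, 98.7% in the Corin list and 100% in both lists with ATRA. A single merged region of 10208 bp contained the gene from end to end. Its peak over the start site was 5043 bp wide with DMSO, 9711 bp with ATRA, 7496 bp with Corin and 10208 bp with both drugs. The DMSO and Corin lists each had 2 peaks in that region, covering 9103 and 9429 bp, against 1 peak in each list with ATRA. The widths of the start peaks therefore differ more than the covered lengths. The strongest summit of CEACAM4 held 262 fragments (231 to 296) with DMSO, 307 (274 to 343) with ATRA, 176 (151 to 204) with Corin and 209 (182 to 239) with both drugs. Scaled to the DMSO depth the last value was 174 fragments (152 to 200), below the DMSO interval. The ATRA+Corin peak over the start was thus wider than the DMSO peak there and lower at its summit. That summit also lay elsewhere: 5383 bp downstream of the start in the ATRA+Corin list, against 206, 205 and 187 bp downstream in the DMSO, ATRA and Corin lists. Genes of at least 5 kb with the most similar coverage over the 4 lists were ATP6V0C on chromosome 16, AZU1 on chromosome 19 and HOXA13 on chromosome 7, at distances of 1.89, 2.41 and 2.95 percentage points.

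**Figure D2:**
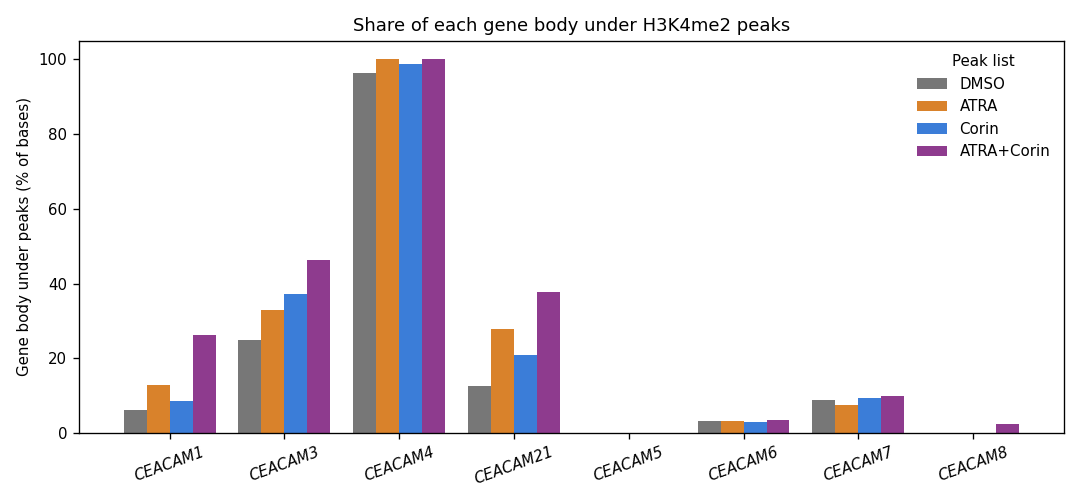
Percent of the bases of each CEACAM gene body under peaks (y axis) for each gene (x axis), 1 bar for each of the 4 lists, without error bars because each treatment has 1 list. Coverage of CEACAM1 goes from 6.22% in the DMSO list to 26.2% in the ATRA+Corin list, while CEACAM4 is at 96.3% or above in all 4.

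CEACAM21 is a transmembrane member of little known function. Of the 6 CEACAM regions with a peak in both lists with ATRA and in neither of the others, it held the strongest in the ATRA list. Its canonical start (chr19:41576166, plus strand) lay under a peak of 1566 bp with DMSO, 3923 bp with ATRA, 1732 bp with Corin and 3935 bp with both drugs. The 2 lists with ATRA thus had nearly the same width, and the other 2 at most 1732 bp. Fragments at the summit were 208 (181 to 238), 294 (261 to 330), 160 (136 to 187) and 214 (186 to 245) in the same order. The ATRA+Corin list thus matched the ATRA list in width and not in height. Scaled to the DMSO depth the ATRA+Corin count was 179 (155 to 204), below the DMSO count, with intervals that overlapped. At the 3′ end of the gene (chr19:41584566-41587073, over an exon) the ATRA list had 121 fragments (100 to 145), a fold of 22.9 and a −log10 q of 89.0. The ATRA+Corin list had 64 fragments (49.3 to 81.7) there, a fold of 12.3 and a −log10 q of 30.1. In that list another of the 6 regions, 13607 bp downstream of the start, had 67 fragments and a −log10 q of 31.6.

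The body of CEACAM21 (chr19:41549518-41586844) held 7 regions, of which 5 were in every list. The one over the start of its longer transcript (chr19:41547512-41552943) had 93 fragments with DMSO, 129 with ATRA, 102 with Corin and 175 with both drugs, and the covered length there was 1581, 3140, 4408 and 5432 bp. Of the intronic regions in every list, the one 12080 bp upstream of the canonical start held 79 to 98 fragments, the one 5078 bp upstream held 29 to 47, and the one 19814 bp upstream held 36 to 66. A region of 729 bp with 27 fragments was in the ATRA+Corin list alone. Peaks covered 12.7% of the CEACAM21 body with DMSO, 27.8% with ATRA, 20.9% with Corin and 37.8% with both drugs. The difference of 15.05 points between the ATRA and DMSO lists was reached by 0.372% of the 17207 genes, the smallest such share of any member in this contrast. Between the ATRA+Corin and DMSO lists CEACAM21 differed by 25.1 points, which 1.21% of genes reached. A strong peak at CEACAM21 was known when the genes were listed, so these shares describe a gene selected on these same lists.

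**Figure D3:**
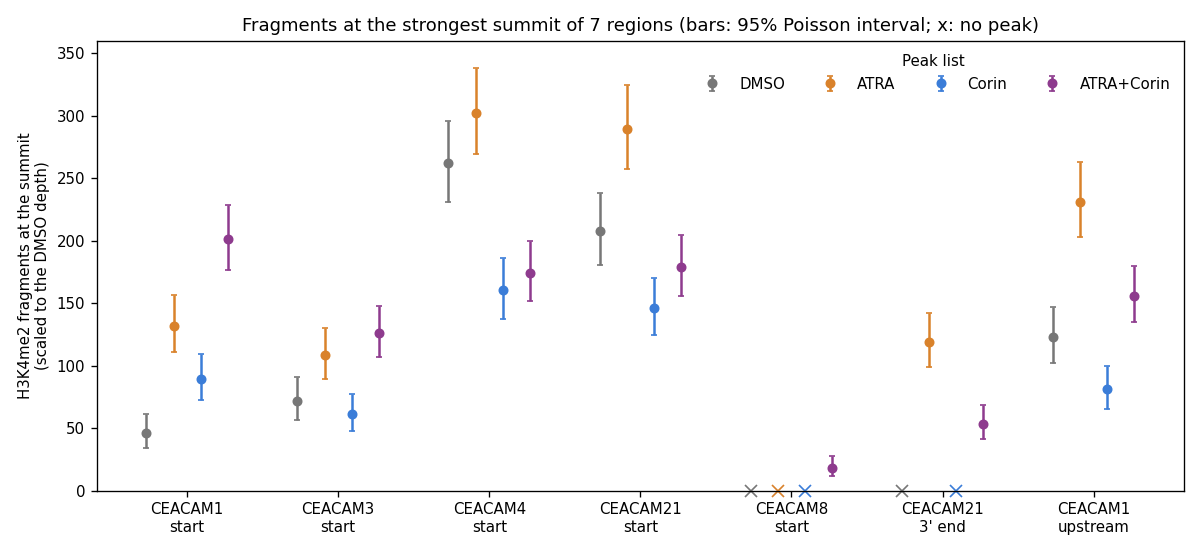
H3K4me2 fragments at the strongest summit, scaled to the DMSO depth (y axis), for 7 regions at CEACAM start sites, the CEACAM21 3′ end and upstream of CEACAM1 (x axis); points are the 4 lists, bars are 95% Poisson intervals, and a cross marks a list without a peak, where fragments are unknown. At the CEACAM1 start the ATRA+Corin point is at 201 and the DMSO point at 46. For the peak over the CEACAM4 start the points are 262 for DMSO and 174 for ATRA+Corin. The ATRA+Corin summit of CEACAM4 lies 5383 bp downstream of the start, so that list gives no count near this start. Summits of one region can lie at different places in the lists.

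The members with a GPI anchor carried little H3K4me2 at their canonical starts. CEACAM5, the carcinoembryonic antigen used as a tumour marker, had no peak anywhere in its body (chr19:41708585-41730433) in any of the 4 lists. The nearest region (chr19:41706516-41707594) lay 1032 bp upstream of its start, over the 5′ end of the CEACAM7 gene body. It was among the strongest near the members, with 225 fragments (197 to 256.4) with DMSO, 295 (262 to 331) with ATRA, 159 (135 to 186) with Corin and 210 (183 to 240) with both drugs. Scaled to the DMSO depth the ATRA+Corin count was 175 (152 to 201), below the DMSO count of 225. As in the peaks over the CEACAM4 and CEACAM21 starts, the ATRA list held the most fragments at its summit and the Corin list the fewest.

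CEACAM7, known from colon epithelium, held 5 regions in its body (chr19:41673303-41706976, minus strand), the one beside CEACAM5 included. None overlapped an exon of a basic transcript and none covered the canonical start. The region 2697 bp upstream of that start held 65 fragments with DMSO, 60 with ATRA, 59 with Corin and 78 with both drugs, with intervals that overlapped. A region 9459 bp upstream held 40, 48, 78 and 116 fragments, and its neighbour (chr19:41698945-41700496) held 114, 135, 118 and 180. In the former both lists with Corin were above both lists without it. Coverage of the CEACAM7 body differed little between lists, from 7.43% in the ATRA list to 9.97% in the ATRA+Corin list. The remaining region of 211 bp was in the DMSO list alone, with 15 fragments.

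CEACAM6, found on granulocytes and epithelia, held 1 region in its body, 1413 bp upstream of the canonical start (chr19:41753371-41754117, intronic). The region held 40 fragments (28.6 to 54.5) with DMSO, 37 (26.1 to 51.0) with ATRA, 53 (39.7 to 69.3) with Corin and 82 (65.2 to 102) with both drugs. The DMSO, ATRA and Corin intervals overlapped, and the ATRA+Corin interval overlapped that of Corin alone. Coverage of the CEACAM6 body was 3.08% to 3.42%, the narrowest range of the members that had a peak in every list.

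CEACAM8, the granulocyte surface marker CD66b, was the one member whose start site was under a peak in the ATRA+Corin list only. That peak (chr19:42594676-42595278, minus strand, start at chr19:42594924) was weak: 603 bp wide, with 22 fragments (13.8 to 33.3), a fold of 4.17 and a −log10 q of 4.41. With a −log10 q of at least 5 required, it was not counted and the ATRA+Corin list had 4 marked starts. With a peak within 1 kb of the start counted, CEACAM8 was also marked in the DMSO and ATRA lists and not in the Corin list, so that 5, 5, 4 and 5 members were marked in the order DMSO, ATRA, Corin and ATRA+Corin. A region upstream of the start (chr19:42595549-42596978), 625 bp away at the edge of the ATRA+Corin peak and farther in the other lists, was in every list, with 54 fragments with DMSO, 60 with ATRA, 46 with Corin and 92 with both drugs. Its covered length was 524, 1056, 454 and 1430 bp. Peaks covered 2.57% of the CEACAM8 body in the ATRA+Corin list and none of it in the others.

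Over the members together, peaks lay in the bodies of 6 of 8 genes in the DMSO, ATRA and Corin lists and of 7 in the ATRA+Corin list. Over all protein-coding genes the shares were 73.2%, 73.9%, 74.2% and 75.5%. Of the 205857 bp of member gene bodies, 11.3% was covered with DMSO, 16.3% with ATRA, 14.4% with Corin and 23.2% with both drugs. Over all genes the coverage was 3.80%, 4.27%, 4.86% and 5.51%. Relative to DMSO the covered length summed over the members was 1.44 times after ATRA, 1.27 times after Corin and 2.05 times after both drugs, against 1.12, 1.28 and 1.45 times over all genes. The sum for both drugs was carried mainly by CEACAM1, with 3355 bp covered with DMSO and 14107 bp with both drugs, and by CEACAM21, with 4746 and 14120 bp, whose peak was known when the genes were listed. The ratio of both drugs to DMSO was 2.98 for CEACAM21 and 1.85 for CEACAM3, but 1.04 for CEACAM4, 1.04 for CEACAM6 and 1.12 for CEACAM7. With ATRA alone CEACAM7 was at 0.833 times its DMSO length. The small shares of genes given above for CEACAM1, CEACAM3 and CEACAM21 did not hold for the other members. Between the ATRA+Corin and DMSO lists, the difference of CEACAM4 was reached by 25.4% of genes and that of CEACAM8 by 33.3%. For CEACAM7 the share was 51.2%, for CEACAM6 68.6%, and for CEACAM5, without any peak in its body, 90.0%.

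Merging the peaks of the 4 lists gave 67 regions in the members' windows. The DMSO list had a peak in 36 of them, the ATRA list in 41, the Corin list in 35 and the ATRA+Corin list in 65. The median member window held 7, 7.5, 6 and 12.5 regions, while the median protein-coding gene held 4, 4, 5 and 6. Present in every list were 32 regions, 47.8% of the members' regions and 51.2% of all regions. Present in the ATRA+Corin list alone were 23 regions, 34.3% of the members' regions and 16.3% of all regions. Another 6 regions were in both lists with ATRA and in neither of the others, 8.96% against 3.59% of all regions, and 3 of these lay nearest to CEACAM21. With every list reduced to the length of the DMSO list by peak strength, the ATRA+Corin list had 48.

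Gained regions are those with a peak after treatment and none in the reference, and lost regions are the reverse. With ATRA against DMSO, 8 of 41 regions were gained, 19.5% (10.2 to 34.0%), and 17.7% of all regions were gained. With Corin against DMSO, 2 of 35 were gained, 5.71% (1.58 to 18.6%), whereas 24.2% of all regions were. This Corin count rests on 2 regions: it was 5 with windows of 100 kb, 0 where only the list with the peak had to reach a −log10 q of 5, and 18 or 20 when single peaks were counted as gained without a partner over 50% of their own length or at a reciprocal overlap of 50%. With ATRA+Corin against DMSO, 31 of 65 were gained, 47.7% (36.0 to 59.6%), against 36.6% of all regions. Compared with ATRA alone the combination gained 24 of 65, 36.9% (26.2 to 49.1%), against 29.8%. Compared with Corin alone it gained 30 of 65, 46.2% (34.6 to 58.1%), against 25.7%. That count was 15 with lists of equal length, 16 with a −log10 q of at least 5 in every list and 11 with it only where the peak was. The share over all regions was not computed under these settings, so whether the members stand apart there was not tested. Regions that share a gene are not independent, the contrasts share lists, and the members were selected on these same lists. The intervals are therefore no test of the members against all regions. The number gained by the combination against DMSO was 14 with lists of equal length and 12 where only the list with the peak had to reach a −log10 q of 5.

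**Figure D4:**
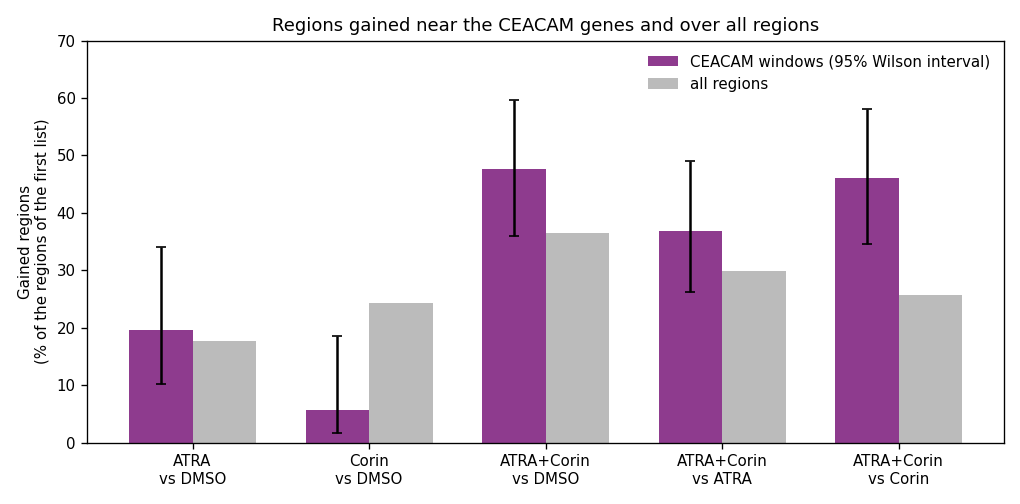
Percent of the regions of the named list that were gained against the reference list (y axis) in 5 contrasts (x axis), for the CEACAM windows with 95% Wilson intervals and for all regions. The CEACAM bar is at 5.71% for Corin against DMSO, below 24.2% for all regions, and at 46.2% for ATRA+Corin against Corin, above 25.7%; the counts behind them, 2 and 30 regions, range from 0 to 20 and from 11 to 42 under the other settings tried.

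Few regions were lost. ATRA lost 3 of 36 regions against DMSO, 8.33% (2.87 to 21.8%), and 9.07% of all regions were lost. Corin lost 3 of 36, against 9.62% of all regions. ATRA+Corin lost 2 of 36, 5.56% (1.54 to 18.1%), against 6.98%. Against ATRA alone the combination lost 0 of 41, with an upper bound of 8.57%, and 6.93% of all regions were lost. Against Corin alone it lost 0 of 35, with an upper bound of 9.89%, and 8.66% of all regions were lost. Both regions of the DMSO list alone were weak, with −log10 q of 0.688 and 2.59. By gene, the combination gained at least 1 region against DMSO in the windows of 7 of 8 members, all but CEACAM5, and of 67.8% of all genes. ATRA did so for 6 of 8 members (42% of all genes) and Corin for 3 of 8 (54%). Losses against DMSO touched the windows of 4 of 8 members with ATRA (24.8% of all genes), 4 of 8 with Corin (25.8%) and 3 of 8 with both drugs (20.3%). Gains were most numerous for CEACAM1, with 11, and CEACAM21, with 10.

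The regions found in the ATRA+Corin list alone were short and weak. Their −log10 q ran from 2.51 to 11.8 with a median of 4.204, and 7 of 23 reached 5, while 23.2% of all regions of this kind did. Their width ran from 165 to 1255 bp with a median of 288 bp. The strongest (chr19:42563572-42563800) lay 31124 bp downstream of the CEACAM8 start, between CEACAM8 and CEACAM1, and held 41 fragments (29.4 to 55.6).

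The 32 regions present in every list allow the lists to be compared where all have a peak. Fragments at the highest summit, scaled for depth, had a median ratio of 1.35 between the ATRA and DMSO lists (above 1 in 28 of 32 regions), and the median over all shared regions was 1.29. Between the Corin and DMSO lists the median ratio was 0.939, with 13 of 32 above 1, and 0.912 over all regions. Between the ATRA+Corin and DMSO lists it was 1.31, with 29 of 32 above 1, and 1.16 over all regions, of which 67.1% were above 1. Between the ATRA+Corin and ATRA lists it was 1.11 for the members, with 19 of 32 above 1, and 0.890 over all regions, of which 36.2% were above 1. The members' median was on the other side of 1 from that of all shared regions in this contrast. Between the ATRA+Corin and Corin lists the median ratios were 1.34 and 1.28.

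Among the regions of the windows that touched no member gene, the 5 with the strongest peaks were in every list. The one 28898 bp upstream of CEACAM21 (chr19:41544845-41547268) held 164 fragments with DMSO, 226 with ATRA, 144 with Corin and 198 with both drugs. Scaled to the DMSO depth these were 164, 222, 131 and 165. A region 41676 bp upstream of CEACAM21 (chr19:41527521-41534490) held 131, 147, 134 and 193, and its covered length was 2177, 2849, 5300 and 6604 bp. Its scaled counts were 131, 145, 122 and 161. The region 10148 bp upstream of CEACAM4 (chr19:41637222-41640936) held 113, 153, 122 and 155. After scaling these were 113, 151, 111 and 129, with the ATRA+Corin list below the ATRA list. A region 9773 bp upstream of CEACAM3 (chr19:41783271-41786814) held 102, 141, 116 and 168, or 102, 139, 106 and 140 after scaling. The region 45963 bp downstream of CEACAM1 (chr19:42479924-42482518) held 63 fragments (48.4 to 80.6), 102 (83.2 to 124), 130 (109 to 154) and 122 (101 to 146), the one of the 5 in which the Corin list was highest. At the edge of the windows, the outermost region inside lay 49475 bp from CEACAM21, in the ATRA+Corin list alone, and the closest regions outside lay 53086 bp from CEACAM21, in every list, and 57096 bp from CEACAM3, in both lists with Corin.

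Related genes outside the list had no marked start site, though some had as many regions in their windows as the members. Of 14 other genes of the family, 4 CEACAM and 10 PSG (pregnancy-specific glycoprotein) genes, 0 had a start site under a peak in any list, and 1 had a peak in its body in the DMSO, ATRA and Corin lists and 2 in the ATRA+Corin list. The windows of CEACAM16, CEACAM18 and CEACAM19 held 8, 10 and 10 regions with DMSO and 11, 12 and 14 with both drugs, against members' medians of 7 and 12.5. The window of CEACAM20 held 3 and 6, and those of the PSG genes at most 1 and 3. Genes for kinases, phosphatases and adaptors that act downstream of CEACAM receptors, with the ligand HAVCR2, had 11 of 12 start sites under a peak in the DMSO and ATRA lists, 10 with Corin and 6 with both drugs. All 12 of their gene bodies held a peak in every list. Of 7 genes of the neutrophil specific granule, whose membrane also stores CEACAM8, CAMP had its start under a peak in every list and MMP8 in both lists with Corin.

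The letters under the members' regions were compared with those under all regions in windows of 300 bases around the strongest summit. AGGTCA was found in 20 of 67 members' regions, 29.9%, and in 22.2% of all regions. It was found in 8 of the 23 regions of the ATRA+Corin list alone and in 8 of the 32 regions of every list. Direct repeats were searched with the looser half-site RGKTCA (R is A or G, K is G or T), which includes AGGTCA. With a spacing of 5 bases they were found in 0 members' regions and 0.110% of all regions. With a spacing of 2 bases they were found in 2 members' regions, 2.99%, and in 1.66% of all regions. The motif of PU.1, AGGAAGT, was found in 4 regions, 5.97%, and in 11.03% of all. Motifs of C/EBP (TTGCNNAA, 14.9% against 15.5%), RUNX (TGTGGT, 20.9% against 21.8%) and AP-1 (TGANTCA, 10.4% against 9.83%) differed by less than 1 percentage point. Both strands were searched throughout. No test was made of these shares.

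Family members are similar in sequence, so reads could in principle be placed on the wrong copy. Stretches of 75 bases, the read length, that occur more than once in the genome made up 0.459% to 2.68% of the members' gene bodies. In 48 of the 67 regions there were none, and the highest share in a region was 9.59%. How the authors treated reads with several placements is not given in the sources used here.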

How the data were processed

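H3K4me2 was measured in U-937 cells as 8 H3K4me2 and 4 input libraries, grouped by the sample titles. The submitters' processing notes name Trimmomatic, Bowtie2, Picard, MACS2 and the build hg38; versions and thresholds are not given in the sources used here. Each treatment has 1 deposited peak list, named as an optimal set reproducible by overlap, so values are pooled over replicates. The score in the deposited lists is a whole number that follows the −log10 p up to a cap. The deposited fold is a ratio of H3K4me2 to input at the summit. The −log10 p and −log10 q values are deposited per peak by the same caller, and the remaining deposited column is the summit's offset.

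Fragment counts were solved from the authors' fold (pseudocount 1) and −log10 p with a Poisson tail, within 0.001, for 100% of the peaks of each list; 18 to 293 peaks per list had more than 1 solution. The median summit held 39 to 47 fragments. Relative H3K4me2 depth came from the recovered background.

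Peaks that overlapped or touched (at least 1 bp) were merged into regions. Coordinates count from 1 on GRCh38, and 0 peaks ended past a chromosome. Genes were taken from GENCODE release 44 and promoters from RefSeq; 8 of 8 members matched. All members were named, with every region over a member gene or start site and the 5 strongest others. Members and gene lists were chosen with earlier results of these data known. Counts were compared between lists without a test. Alternatives tried were stricter peaks (−log10 q of at least 5), equal list lengths, equal depth, other windows, merging distances, overlaps and start-site definitions. Scripts were tested on simulated data and used Python 3.11.15, NumPy 2.4.6, pandas 2.3.3, SciPy 1.17.1 and Biopython 1.88. Protein sequences were not used here, and 1 sequence is not reported here.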

Additional observations from a re-analysis of the deposited data

How the results depend on the processing

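No paired analysis was possible because the libraries of each treatment are joined in 1 list with no values per replicate; for the same reason no run leaves out a replicate. Counts of gained and lost regions depend on how weak peaks are treated, and their error between replicates is unknown. Start sites under a peak and covered gene-body lengths stayed within 1.5 times under each alternative run for them. Scaling to equal depth, with a −log10 p of at least 2 required, moved no count of regions in any list, so it does not show how depth bears on them.

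Windows of 10 kb left 22 regions each in the DMSO and Corin lists, 23 in the ATRA list and 33 in the ATRA+Corin list. Against DMSO they left 2 regions gained and 1 lost with ATRA, 1 gained and 1 lost with Corin, and 12 gained and 1 lost with ATRA+Corin; the combination gained 10 against ATRA and 11 against Corin. Windows of 100 kb gave 6 lost with ATRA and 5 gained with Corin.

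With a −log10 q of at least 5 in every list, ATRA lost 1 region, and ATRA+Corin gained 16 and lost 0 against DMSO, gained 10 against ATRA and gained 16 against Corin. With that strength required only where the peak was present, ATRA gained 3 and lost 1, Corin gained 0 and lost 0, and ATRA+Corin gained 12 and lost 0 against DMSO, gained 8 against ATRA and 11 against Corin. With all lists limited to equally many peaks, Corin gained 1, and ATRA+Corin gained 14 against DMSO, gained 10 and lost 3 against ATRA, and gained 15 against Corin. With peaks within 1 kb merged, Corin gained 1, and ATRA+Corin gained 16 and lost 1 against DMSO, 10 gained against ATRA and 16 against Corin.

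Counting single peaks without a partner over 50% of their length gave, against DMSO, 19 gained and 6 lost with ATRA, 18 gained and 8 lost with Corin, and 53 gained with ATRA+Corin; the combination lost 1 against ATRA and 2 against Corin. A reciprocal overlap of 50% gave 22 gained and 24 lost with ATRA, 20 gained and 26 lost with Corin, 53 gained and 35 lost with ATRA+Corin, and 16 lost against ATRA and 18 against Corin; single peaks are counted here, which are more numerous than regions.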
